A study of Homo sapiens with 90 samples.

Results

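The nuclear genes for the protein subunits of the oxidative phosphorylation machinery were followed in HepaRG cells, a bipotent human liver line whose progenitors can be matured towards hepatocytes and cholangiocytes. Members were chosen by gene symbol, by a rule that holds no measured difference but was set with earlier results of these data known. They were the NDUFA, NDUFB, NDUFC, NDUFS, NDUFV and NDUFAB genes of complex I, SDHA to SDHD of complex II, the UQCR genes and CYC1 of complex III, the ubiquitous COX4 to COX8 genes of complex IV, and the ATP5F1, ATP5M and ATP5P genes of ATP synthase, without pseudogenes and with a mean of at least 10 counts. This gave 80 of the 28307 genes in the count table, and all 80 were among the 12532 genes with enough counts to be tested. Complex I contributed 37, complex II 4, complex III 9, complex IV 11 and complex V, the ATP synthase, 19. NDUFA4 was counted with complex IV, to which its protein belongs. ATP5MGL and ATP5MF-PTCD1 were kept by the rule, and their values are uncertain because they can share reads with ATP5MG and ATP5MF.

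The libraries were made by BRB-seq, in which barcoded samples are pooled for RNA sequencing. They came from parental HepaRG cells, labelled wt, and from HepaRG cells stably transduced by a lentivirus with CYP2D6, a drug-metabolising cytochrome P450, labelled CYP2D6. Both genotypes were sampled in 3 states: Progenitor (days 0, 2, 4, 7 and 14, labelled noDMSO), FreshDifferentiated, called fresh below, and Thawed. Each of the last 2 was sampled on days 30 and 32 as noDMSO and on days 32, 37 and 44 as withDMSO. All conditions share the growth medium with insulin and hydrocortisone. By the protocols, differentiation took 2 weeks of growth and 2 more with 1.7% DMSO, so the cells of day 30 had passed through DMSO although their label reads noDMSO. The labels do not say whether the transduced cells were a pool or a clone, nor whether replicates a, b and c were separate cultures, and p-values then measure only the spread between these samples, which may be technical.

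Oxidative phosphorylation takes place in the inner mitochondrial membrane. Complexes I and II pass electrons from NADH and succinate to ubiquinone, complex III passes them on to cytochrome c, and complex IV reduces oxygen with them. Complexes I, III and IV pump protons, and ATP synthase lets the protons flow back through its membrane ring to make ATP. Most subunits are encoded in the nucleus and imported, a smaller set is made inside the mitochondrion, and the latter was not analysed here. Hepatocytes rely on this machinery for gluconeogenesis, urea synthesis and fatty acid oxidation.

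The factors NRF1 and GABPA (an ETS factor), YY1, the oestrogen-related receptors and CREB are known to act on promoters of this gene family. A RefSeq promoter of 300 bases (GRCh38.p14, 250 before the start and 50 after it) was matched by symbol for 64 of the 80 members, and motifs were searched on both strands, each on its own, so that a base could belong to more than 1 match. The NRF1 motif, GCGCA and GCGC with any base between them, was present in 16 of the 64 (25%), against 6.28% of 27305 promoters. The ETS motif CCGGAAG was present in 20 (31.2%, against 10.7%), and at least 1 of these motifs in 33 (51.6%, against 15.7%). The YY1 motif AAGATGGC occurred in 11 (17.2%, against 3.03%) and the cAMP response element TGACGTCA in 5 (7.81%, against 1.98%), those of ATP5MC1, ATP5ME, NDUFA10, NDUFB2 and SDHB. The SP1 motif GGGCGG occurred in 39 (60.9%, against 44.6%), and the motif of the oestrogen-related receptors, TCAAGGTCA, in SDHD alone (1.56%, against 0.359%). A match describes these letters and not a site bound in these cells.

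Shown here are the 150 bases before the start of 5 members whose RNA followed the common pattern described later, with matches to the NRF1, ETS or cAMP response motifs in capitals. They are COX5B (chr2:97645912-97646061, plus strand), COX7B (chrX:77899318-77899467, plus strand), ATP5MC1 (chr17:48892637-48892786, plus strand), ATP5PO (chr21:33915805-33915954, minus strand) and UQCRC1 (chr3:48609647-48609796, minus strand), each written 5′ to 3′ along the gene. The capitals mark an ETS match in COX5B, a cAMP response element in ATP5MC1 and an NRF1 match in ATP5PO and UQCRC1, and COX7B holds none of the 3.
COX5B: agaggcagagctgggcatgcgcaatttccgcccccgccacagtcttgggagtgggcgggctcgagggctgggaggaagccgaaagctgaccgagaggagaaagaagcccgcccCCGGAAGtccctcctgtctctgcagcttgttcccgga
COX7B: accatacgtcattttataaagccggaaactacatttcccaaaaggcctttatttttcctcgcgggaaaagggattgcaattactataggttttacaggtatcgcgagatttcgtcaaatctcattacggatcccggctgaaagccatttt
ATP5MC1: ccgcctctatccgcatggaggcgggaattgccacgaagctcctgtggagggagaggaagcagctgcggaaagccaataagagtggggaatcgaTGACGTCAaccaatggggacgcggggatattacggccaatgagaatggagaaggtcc
ATP5PO: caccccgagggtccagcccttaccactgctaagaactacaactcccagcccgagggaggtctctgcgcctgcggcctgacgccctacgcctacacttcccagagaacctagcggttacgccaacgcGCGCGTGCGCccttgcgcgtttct
UQCRC1: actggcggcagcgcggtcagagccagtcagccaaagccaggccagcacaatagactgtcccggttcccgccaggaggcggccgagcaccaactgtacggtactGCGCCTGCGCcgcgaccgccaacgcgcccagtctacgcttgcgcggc

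Of 90 libraries, 87 held between 723391 and 3882866 counts (median 1935150). The other 3, all parental replicates c, were nearly empty and were left out: progenitor day 2 with 212 counts, progenitor day 14 with 10137 and fresh day 30 with 505. Those 3 conditions therefore have 5 libraries, in the order wt a, wt b, CYP2D6 a, CYP2D6 b and CYP2D6 c below, and the other conditions have 6. All 10 hepatocyte markers checked, among them ALB and TTR, had counts in every condition. The largest component of variation within groups took 33.3% of that variance. The score of its 100 leading genes (mean log2 CPM) was uneven between genotypes in some conditions and not in others: at day 2 it was 5.38 to 5.52 in parental and 7.34 to 7.44 in transduced libraries, at day 7 it was 5.93 to 7.90 and 5.52 to 5.66, and at day 0 the genotypes overlapped. Across the 87 libraries this component had a Pearson r of −0.508 with the mean of the members after group means were removed, given as a description, and its score was added to the fit as an alternative.

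Together the members took between 3.92% and 10.1% of a library's counts. In progenitors the share had a lowest, median and highest value of 6.89%, 7.31% and 8.27% at day 0, of 7.60%, 7.89% and 8.92% at day 4 and of 9.01%, 9.48% and 10.1% at day 7. Between them, at day 2, it was 4.52%, 4.95% and 5.27%, below every library of the neighbouring days, and it came back to 5.87%, 7.09% and 7.32% at day 14. Freshly differentiated cells at day 30 lay lower, at 3.92%, 4.26% and 4.32%, and thawed cells of the same day at 4.83%, 4.96% and 5.33%, with no overlap between them. In 4 conditions 1 library stood apart from the rest in this share by Dixon's criterion (parental replicate a at fresh day 30, transduced replicate a at fresh day 32 without DMSO and at thawed day 30, and transduced replicate c at thawed day 37), while none did in the summed CPM after scaling. Counts without these 4 libraries, an alternative added after seeing the data, are given where they move a result. The highest condition mean fell at progenitor day 7 for 43 members and at day 4 for 31, and the lowest at fresh day 30 for 56 and at progenitor day 2 for 11. The share depends on the other transcripts too, since the 10 most abundant genes took 7.74% to 10.6% of the counts at day 0 and up to 24.1% in fresh cells at day 44. In bulk RNA, fewer cells of a type and less RNA per cell cannot be told apart.

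**Figure D1:**
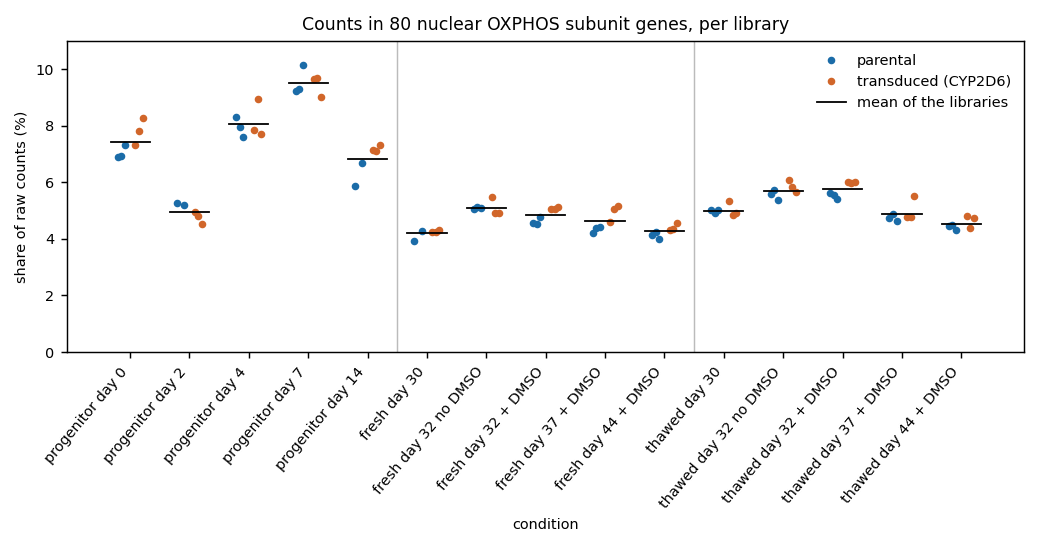
Share of raw counts taken by the 80 members, in percent (y axis), in each library (points, coloured by genotype) over the 15 conditions (x axis), with a line at the mean. The progenitor libraries of day 7 sit highest, up to 10.1%, and day 2 lies below both of its neighbours. The lowest library, at 3.92%, is of fresh day 30, and fresh day 44 overlaps it in range, down to 3.99%.

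The rise and fall of the members in the first days of progenitor culture was measured between neighbouring days, averaged over genotypes. From day 0 to day 2, 65 of the 80 members fell and none rose, while 16.6% of all genes tested fell and 13.8% rose (edgeR quasi-likelihood test, adjusted p under 0.05 over 12532 genes). The median log2 fold change was −0.50 over the members and −0.08 over all genes. All 11 members of complex IV (median −0.79), all 9 of complex III (−0.57) and all 4 of complex II (−0.67) fell, with 25 of 37 in complex I (−0.34) and 16 of 19 in ATP synthase (−0.47). For 31 members every day 2 library lay below every day 0 library, against 7.74% of all genes.

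COX5B, the zinc-binding subunit of cytochrome c oxidase, had the smallest p. Its lowest, median and highest CPM, the count after scaling for library size, were 2631, 3083 and 3781 at day 0, and its 5 libraries of day 2 read 1444, 1375, 1387, 1389 and 1164. The groups did not overlap, and the log2 fold change was −1.21 ± 0.09 (SE; 2.31-fold lower, adjusted p = 1.33e-22). COX7B, a small subunit of the same complex, read 1479, 2067 and 2542 CPM at day 0, and 1071, 1100, 1019, 927 and 825 at day 2 (log2 fold change −0.99 ± 0.09, adjusted p = 9.39e-19). COX7C (−0.93 ± 0.08) and NDUFA4 (−0.89 ± 0.09) of complex IV and UQCRB of complex III (−0.87 ± 0.09) fell too. The largest fall in complex I was that of NDUFS3, a core subunit, at −0.97 ± 0.14 (adjusted p = 3.92e-09). SDHD, a membrane anchor of succinate dehydrogenase, fell by 0.92 ± 0.15 on the log2 scale (adjusted p = 2.27e-07). Its day 0 libraries were spread widely, from 31.9 over a median of 96.9 to 138 CPM, and overlapped those of day 2, at 39.8, 57.6, 40.4, 48.4 and 47.3 CPM. In ATP synthase, ATP5F1D of the central stalk had the largest fall (−1.11 ± 0.20, adjusted p = 1.89e-06).

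From day 2 to day 4, 75 of the 80 members rose and none fell, against 9.01% of all genes that rose and 6.26% that fell. This comparison shares its day 2 libraries with the one before. The median member changed by 0.69 and the median gene by 0.04, and in 60 members every day 4 library was above every day 2 library (4.54% of all genes). Complexes II, III and IV rose in full, with medians of 0.96, 0.78 and 0.85, and 34 members of complex I (0.57) and 17 of ATP synthase (0.68) rose with them. COX5B reached 2366, 2905 and 4505 CPM at day 4 (1.22 ± 0.09, adjusted p = 5.2e-22), and COX7B 1685, 2206 and 2826 CPM (1.15 ± 0.09, adjusted p = 1.22e-21). In both, the lowest day 4 library was above the highest of day 2. ATP5F1B, the catalytic beta subunit of ATP synthase, read 910, 948, 920, 815 and 824 CPM at day 2 and 1413, 1892 and 2207 at day 4 (1.05 ± 0.08, adjusted p = 1.27e-21). NDUFS3 (1.25 ± 0.14), SDHD (1.12 ± 0.15) and CYC1, cytochrome c1 (0.96 ± 0.12), had the largest rises in complexes I, II and III. The 5 members that did not pass, named here after their values were seen, were ATP5MC2 (0.23), NDUFC2 (0.19), NDUFA7 (0.20), ATP5MF-PTCD1 (0.22) and NDUFV3 (−0.14).

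Other features of the cultures moved with the members at day 2. The summed level of 22 cell cycle genes was 363 to 918 CPM at day 0, 2256 to 2526 at day 2 and 1008 to 1224 at day 4, and that of the 10 hepatocyte markers was 8738 to 18731, 2674 to 3048 and 2676 to 3792 CPM. Their part in the members' change was not tested. The size of the fall from day 0 to day 2 also differed between genotypes as a description, with a member median of −0.24 (60 of 80 lower) in parental and −0.74 (79 of 80 lower) in transduced cells, and this difference was not tested. At day 0 the members were higher in transduced than in parental cells by a median of 0.33, and at day 2 the median of the same difference was −0.23. With the component score added to the fit, 71 members were called from day 0 to day 2 and 75 from day 2 to day 4.

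Between day 4 and day 7 few members moved. Of the 80, 17 rose (8.08% of all genes) and 2 fell (9.37%), with a median of 0.05. Complex IV supplied 7 of the rises (median 0.26), complex III 3 (0.13), complex I 5 (−0.02), ATP synthase 2 (0.03) and complex II none. The smallest p values were those of 2 small subunits of complex III, UQCR11 (0.52 ± 0.08, adjusted p = 1.8e-07) and UQCRQ (0.45 ± 0.08, adjusted p = 4.22e-06), and of NDUFV3, an accessory subunit of complex I (0.63 ± 0.11, adjusted p = 4.54e-06). UQCRQ read 1899, 2374 and 3112 CPM at day 4 and 2886, 3197 and 3965 at day 7, so the ranges overlapped. NDUFS6 (−0.38 ± 0.10, adjusted p = 0.00248) and NDUFA5 (−0.31 ± 0.11, adjusted p = 0.0379) fell. The call of NDUFA5 was lost in 5 of 11 alternative fits, over which its adjusted p ran from 0.00214 to 0.502. The balance of directions was not stable: without replicate c of the groups 5 members rose and 6 fell, and without replicate a 7 rose and 1 fell.

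From day 7 to day 14, 49 members fell and none rose, against 2.83% of all genes that fell and 4.35% that rose. The median was −0.36 over the members and −0.01 over all genes. All 11 of complex IV fell, with 8 of 9 in complex III, 14 of 19 in ATP synthase, 15 of 37 in complex I and 1 of 4 in complex II, SDHA (−0.36, adjusted p = 0.0221). The call of SDHA was lost in 5 of 12 alternative fits, among them those without replicate a, b or c (adjusted p 0.00567 to 0.286). COX7B dropped from 2383, 2622 and 2775 CPM to 1263, 1631, 1891, 1882 and 1895 (−0.65 ± 0.09, adjusted p = 7.26e-10), with no overlap. UQCRH, the hinge protein of complex III (−0.57 ± 0.08), ATP5MF, the f subunit of ATP synthase (−0.58 ± 0.09), and NDUFA4 (−0.59 ± 0.09) followed. The lowest of the 5 COX7B libraries of day 14 was parental replicate a, and without it 36 members were called from day 7 to day 14, and 18 without replicate a of all groups. By genotype the member median was −0.50 in parental and −0.21 in transduced cells, a difference that was not tested. Hepatocyte markers summed to 9759 to 17971 CPM at day 7 and to 30109 to 43607 at day 14, and their part was not tested.

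Set directly against day 0, few members differed at day 14 by the test. The 7 that passed were as follows: NDUFA2 rose (5.59% of all genes rose; 0.35 ± 0.09, adjusted p = 0.00306), and 6 fell (4.99% of all genes), ATP5MF (−0.37), NDUFS5 (−0.32), COX7C (−0.28), COX7B (−0.27), CYC1 (−0.37) and ATP5MG (−0.27). The median was −0.11 over the members and −0.01 over all genes. In every member the libraries of the 2 days overlapped, while 2.96% of all genes lay wholly above at day 14 and 2.11% wholly below. The 436 genes outside the family with transcripts of up to 1000 nt, cytosolic ribosomal protein genes left out, had a median of −0.12. Short members had −0.15 and longer members −0.08, and the part of transcript length was not tested. The 7 calls were not stable. In a fit of the compared libraries alone no member was called. Without parental replicate a of day 14, 4 were, and 1 without replicate a of all groups. Without replicate c the balance turned, with 4 higher and 1 lower. Of 12 alternative fits NDUFA2 lost its call in 4 (adjusted p 0.000247 to 0.142) and COX7B in 5 (0.00393 to 0.346).

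**Figure D2:**
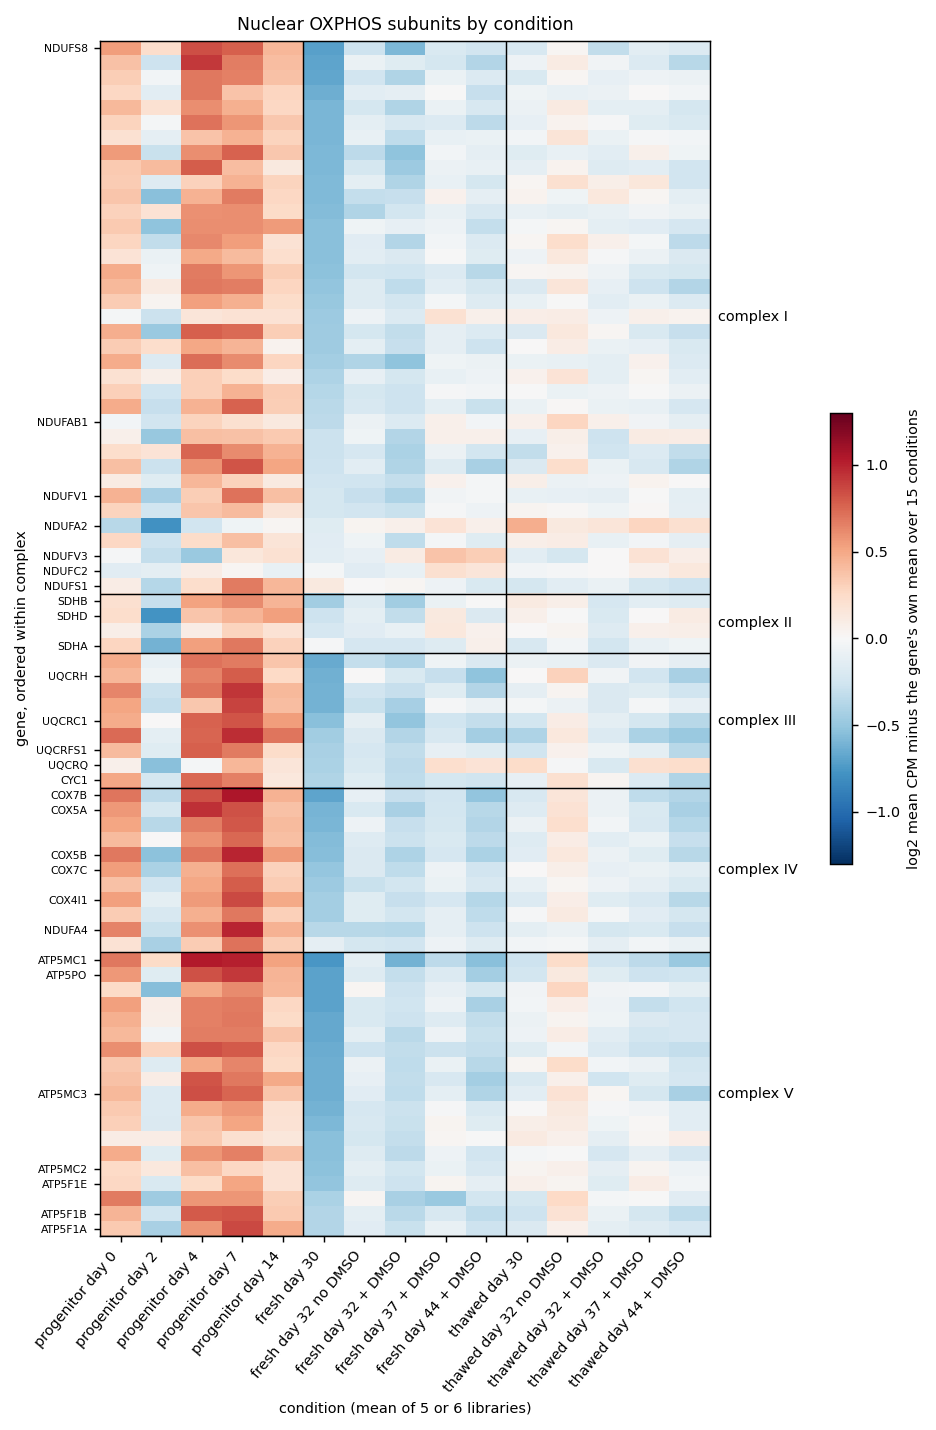
Log2 mean CPM of each of the 80 members (rows, grouped by complex, with names at selected rows) in the 15 conditions (columns), minus the gene's own mean over conditions. Most rows are high at progenitor days 4 and 7, lower at day 2, and lowest at fresh day 30, and NDUFC2, NDUFA2 and NDUFV3 depart from that.

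Freshly differentiated cells at day 30 had less RNA of nearly every member than progenitors at day 14. Of the 80, 77 fell and none rose, against 11.9% of all genes that fell and 10.7% that rose. The median log2 fold change was −0.76 over the members and 0.02 over all genes, and in 69 members every fresh library lay below every day 14 library (8.39% of all genes). All members of complexes II (median −0.52), III (−0.95), IV (−0.88) and V (−0.86) fell, with 34 of 37 in complex I (−0.70). The exceptions were NDUFC2 (0.11), NDUFA2 (−0.14) and NDUFS1, the largest core subunit of complex I (−0.27).

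COX7B and ATP5MC1 had the smallest p. COX7B went from the day 14 values given above to 722, 762, 808, 810 and 801 CPM (−1.10 ± 0.09, adjusted p = 6.17e-19). ATP5MC1, a gene for the c subunit that forms the rotating ring of ATP synthase, read 835, 1044, 1235, 1304 and 1304 CPM at day 14 and 492, 485, 482, 414 and 498 at day 30 (−1.20 ± 0.10, 2.30-fold lower, adjusted p = 8.3e-19). Neither gene's groups overlapped, and the spread among the fresh libraries was small beside the gap. COX5B read 2323, 2585, 3568, 2923 and 3003 CPM and then 1124, 1433, 1387, 1401 and 1334 (−1.07 ± 0.09, adjusted p = 1.69e-17). ATP5PF, coupling factor 6 of the peripheral stalk, fell by 1.07 ± 0.10 on the log2 scale (adjusted p = 1.77e-16). In complex I the largest fall was that of NDUFS8, an iron-sulphur core subunit, from 331, 355, 449, 397 and 445 to 187, 171, 181, 196 and 166 CPM (−1.09 ± 0.11, adjusted p = 5.92e-15). UQCRC2, a core protein of complex III (−1.15 ± 0.13), and SDHB, the iron-sulphur subunit of complex II (−0.82 ± 0.12), led their complexes. NDUFC2, one of the exceptions, read 411, 381, 490, 450 and 465.5 CPM at day 14 and 471, 495, 432, 436 and 483 at day 30, an overlap over most of the range.

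The decline was present in both genotypes, with a member median of −0.61 in parental cells (78 of 80 lower) and −0.96 in transduced cells (all 80 lower), and the difference between genotypes was not tested. Hepatocyte markers summed to 49836 to 72506 CPM in the fresh cells, above the 30109 to 43607 of day 14, and cytosolic ribosomal protein genes took 12.4% to 14.9% of the counts, below the 17.7% to 21.1% of day 14. The part of either in the members' fall was not tested. As the members have short transcripts, with a median length of 1256.5 nt for the longest coding transcript against 3425 nt over 11523 genes, short genes outside the family were measured too. The 436 other genes with transcripts of up to 1000 nt had a median log2 fold change of −0.35, against −0.81 in the 33 short members and −0.75 in the 47 longer ones. The part of transcript length was not tested.

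Over the next 2 days without DMSO the members rose again in fresh cells. From day 30 to day 32, 47 of the 80 rose and none fell, against 9.53% of all genes that rose and 7.81% that fell, with medians of 0.33 and 0.01. This comparison and the one before use the same 5 libraries of day 30. ATP synthase had 16 of 19 called (median 0.44), complex IV 8 of 11 (0.30), complex III 5 of 9 (0.32) and complex I 18 of 37 (0.27), and no member of complex II passed (0.08). ATP5PF went from 508, 594, 619, 531 and 606 CPM to a lowest, median and highest value of 877, 928 and 1065 (0.73 ± 0.09, 1.66-fold, adjusted p = 5.76e-10). UQCRH read 614, 626, 600, 644 and 619 CPM and then 903, 945 and 1066 (0.63 ± 0.09, adjusted p = 4.97e-09). In both genes all libraries of day 32 lay above all of day 30, as they did in 39 members (6.38% of all genes). COX7B (0.59 ± 0.09), ATP5MC1 (0.62 ± 0.09) and NDUFA8 (0.58 ± 0.11) rose with them. COX7B reached 1087, 1136 and 1269 CPM, against 1263 to 1895 CPM at progenitor day 14, and the 2 ranges met at their edges.

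The calls of this step leaned on replicate a of the groups: without replicate a throughout, 9 members were called from day 30 to day 32. Without the single parental replicate a of fresh day 30, an alternative added after seeing the data, 33 were called, and 21 without the 4 libraries that stood apart. Short genes outside the family rose as well, with a median of 0.40 in the 436 genes, against 0.38 in short and 0.28 in longer members, and ribosomal protein genes went up to 17.1% to 19.6% of the counts. The part of either was not tested.

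A few members were lower in cells of day 32 with DMSO than in cells of day 32 without it. In fresh cells 4 of the 80 fell and none rose, against 1.97% of all genes that fell and 0.479% that rose. They were ATP5MC1 (−0.50 ± 0.09, adjusted p = 2.8e-05), UQCRC1, a core protein of complex III (−0.40 ± 0.09, adjusted p = 0.00158), ATP5PF (−0.30, adjusted p = 0.0353) and NDUFA13 (−0.27, adjusted p = 0.0436). The call of NDUFA13 was lost in 7 of 12 alternative fits (adjusted p 0.0126 to 0.401) and that of ATP5PF in 5 (0.0109 to 0.607), both of them in the fit without the 4 libraries that stood apart. Without replicate a of the groups none of the 4 passed, with ATP5MC1 at −0.37 (adjusted p = 0.105) and UQCRC1 at −0.35 (adjusted p = 0.204). ATP5MC1 read 650, 721 and 836 CPM without DMSO and 448, 529 and 614 with it, and the ranges did not overlap. The median member changed by −0.13 and the median gene by 0.00, with 71 members on the negative side. The 436 other genes with transcripts of up to 1000 nt had a median of −0.12, against −0.13 in short and −0.13 in longer members. In thawed cells 15 fell and none rose (5.35% of all genes fell and 2.42% rose), with a median of −0.18 against 0.03. There the 436 other short genes had a median of −0.20, against −0.17 in short and −0.18 in longer members. The part of transcript length was not tested in either state. ATP5MC1 was again the member with the smallest p, at 842, 905 and 1121 CPM without and 612, 677 and 739 with DMSO (−0.49 ± 0.09, adjusted p = 1.43e-05), followed by UQCRH (−0.34), NDUFB9 (−0.32), ATP5PF (−0.34) and NDUFS8 (−0.35). Of the 15, 6 belonged to ATP synthase, 4 to complex I, 4 to complex IV and 1 to complex III. Without replicate a of the groups 1 member was called, and without replicate b 3 were.

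No difference in the DMSO effect between thawed and fresh cells was detected in any member. In the test of the difference no member was called by edgeR or by DESeq2, and edgeR called 0.12% of all genes. At an unadjusted p under 0.05 in edgeR there were 0 of the 80 members and 753 of the 12532 genes. For ATP5MC1 the difference was 0.01 ± 0.12. In thawed cells the ribosomal protein genes fell with DMSO too, 66 of 81 of them, with a median of −0.40, and their part was not tested.

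**Figure D3:**
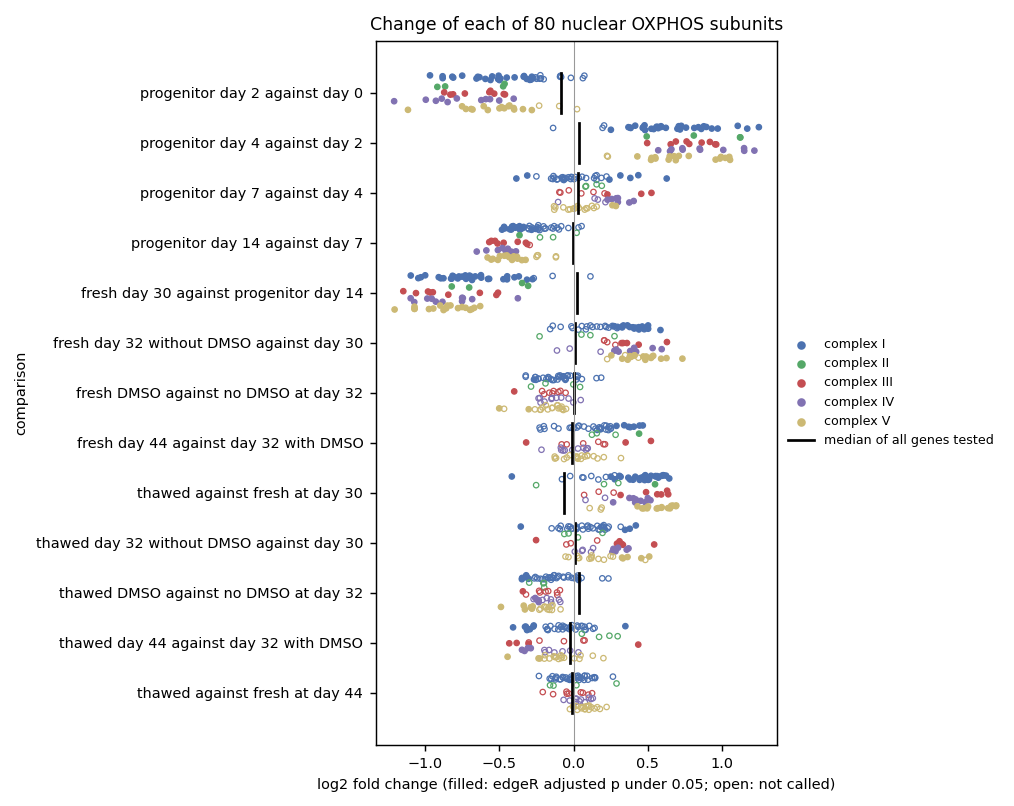
Log2 fold change of the 80 members (points, coloured by complex, filled where called at adjusted p under 0.05) in 13 comparisons between conditions, with a black line at the median of all genes tested. The members lie mostly below the line from day 0 to day 2 and from progenitor day 14 to fresh day 30, and mostly above it from day 2 to day 4, from fresh day 30 to day 32 and in thawed against fresh cells at day 30.

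During the later maintenance with DMSO, from day 32 to day 44, changes were few and mixed. In fresh cells 10 members rose (6.53% of all genes) and 1 fell (4.95%), with a median of 0.09. UQCRQ rose most clearly, from 1709, 1970 and 2117 CPM to 2613, 2816 and 2922 (0.52 ± 0.08, adjusted p = 1.81e-07), without overlap. NDUFA3 (0.41), UQCR11 (0.35), SDHB (0.44) and NDUFS7 (0.47) rose too, and UQCRH, of the same complex as UQCRQ, fell (−0.32 ± 0.08, adjusted p = 0.00214). Without replicate a of the groups 6 rose and none fell, and UQCRH did not pass (adjusted p up to 0.0877 over 11 alternative fits). In thawed cells 2 members rose (5.68% of all genes) and 15 fell (3.91%), with a median of −0.08. UQCRQ rose here as well, from 1947, 2112 and 2382 to 2435, 2883 and 3327 CPM (0.43 ± 0.08, adjusted p = 1.51e-05). The falls were led by ATP5MC3 (−0.44 ± 0.08, adjusted p = 3.05e-06), UQCRH (−0.38), COX6B1 (−0.33) and NDUFB10 (−0.41), and COX5A had the largest fall in complex IV (−0.35, adjusted p = 0.0142). The call of COX5A was lost in 4 of 11 alternative fits, among them those without replicate a, b or c (adjusted p 7e-05 to 0.140). Without replicate a, b or c of the groups 5, 7 and 9 members were called. By genotype the direction differed as a description: in thawed cells 70 of 80 members were lower in transduced cells (median −0.23) and 46 were higher in parental cells (0.02), and in fresh cells the medians were 0.00 and 0.18. These differences between genotypes were not tested.

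Thawed cells held more member RNA than fresh cells at day 30. Of the 80, 60 were higher (9.54% of all genes) and 1 was lower (6.02%), with medians of 0.46 and −0.06. The fresh day 30 libraries of the 2 comparisons above enter here too. Complex I had 28 of 37 higher (median 0.45), complex II 1 of 4 (0.25), complex III 6 of 9 (0.49), complex IV 9 of 11 (0.41) and ATP synthase 16 of 19 (0.56). ATP5MD, a small membrane subunit of ATP synthase, read 731, 795, 880, 946 and 822 CPM in fresh cells and 1262, 1286 and 1477 in thawed cells (0.69 ± 0.09, adjusted p = 1.5e-08). UQCRQ read 1793, 1975, 1838, 1772 and 1894 CPM in fresh and 2458, 2906 and 3270 in thawed cells (0.64 ± 0.09, adjusted p = 3.61e-08). Neither overlapped, which held for 55 members (6.42% of all genes). UQCRH (0.63 ± 0.09), NDUFA2 (0.64 ± 0.09), SDHB (0.55) and COX6B1 (0.52) were higher as well. The lower member was NDUFS1 (−0.42 ± 0.13, adjusted p = 0.0236), and its call was lost in 5 of 13 alternative fits, among them the one without parental replicate a of fresh day 30 (adjusted p 0.00874 to 0.220 over the 13).

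Replicate a carried part of these calls: 26 members were called without it, 53 without the single parental replicate a of fresh day 30 and 48 without the 4 libraries that stood apart. Cytosolic ribosomal protein genes were higher in thawed cells in 78 of 81 cases (median 0.52), and the 436 other short genes had a median of 0.45, against 0.49 in short and 0.38 in longer members. The part of either was not tested. Of the 10 hepatocyte markers 4 passed the test, all lower in thawed cells, while the summed level of the 10 overlapped, at 46831 to 69832 CPM in thawed and 49836 to 72506 in fresh cells, and its part was not tested.

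By day 44 with DMSO no member passed the test between thawed and fresh cells by edgeR or by DESeq2 (0 of 80 at adjusted p under 0.05), and 0.184% of all genes were called. At an unadjusted p under 0.05 there were 6 members and 944 genes in all. Log2 differences ran from −0.23 for NDUFV3 to 0.29 for SDHD, with a median of 0.03.

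From day 30 to day 32 without DMSO the thawed cells showed fewer rises. There 19 members rose (5.98% of all genes) and 2 fell (5.86%), with a median of 0.13. ATP5F1B (0.46 ± 0.07, adjusted p = 5.56e-07), ATP5MC1 (0.51 ± 0.09), NDUFB9 (0.42), UQCRC2 (0.54) and COX7B (0.37) rose, and NDUFA2 (−0.36 ± 0.08, adjusted p = 0.00105) and UQCRQ (−0.25 ± 0.08, adjusted p = 0.0246) fell. Without replicate a of the groups 12 rose and none fell, and without replicate b 9 rose and 2 fell. In the test of the difference between thawed and fresh cells, 2 members passed, both with the lower change in thawed cells (1.15% of all genes were called on that side and 0.662% on the other), and 64 of 80 differences were negative, with a median of −0.20. The 436 other short genes had a median of −0.30, against −0.23 in short and −0.18 in longer members. The part of transcript length was not tested. This test uses the fresh day 30 libraries of the earlier comparisons again. NDUFA2 read 440, 499, 480, 514 and 531 CPM in fresh cells at day 30 and 531, 550 and 647 at day 32, while in thawed cells it read 717, 739 and 902 and then 474, 608 and 714. Its difference of effects was −0.57 ± 0.12 (adjusted p = 0.00324), and that of UQCRQ −0.46 ± 0.12 (adjusted p = 0.022). Without replicate a of the groups they were −0.34 and −0.26, and without the 4 libraries that stood apart −0.40 (adjusted p = 0.213) and −0.29 (adjusted p = 0.367), and neither passed. Over 13 alternative fits the adjusted p ran from 0.000198 to 0.53 for NDUFA2, with 2 calls lost, and from 0.000573 to 0.625 for UQCRQ, with 5 lost, among them the fit without parental replicate a of fresh day 30.

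**Figure D4:**
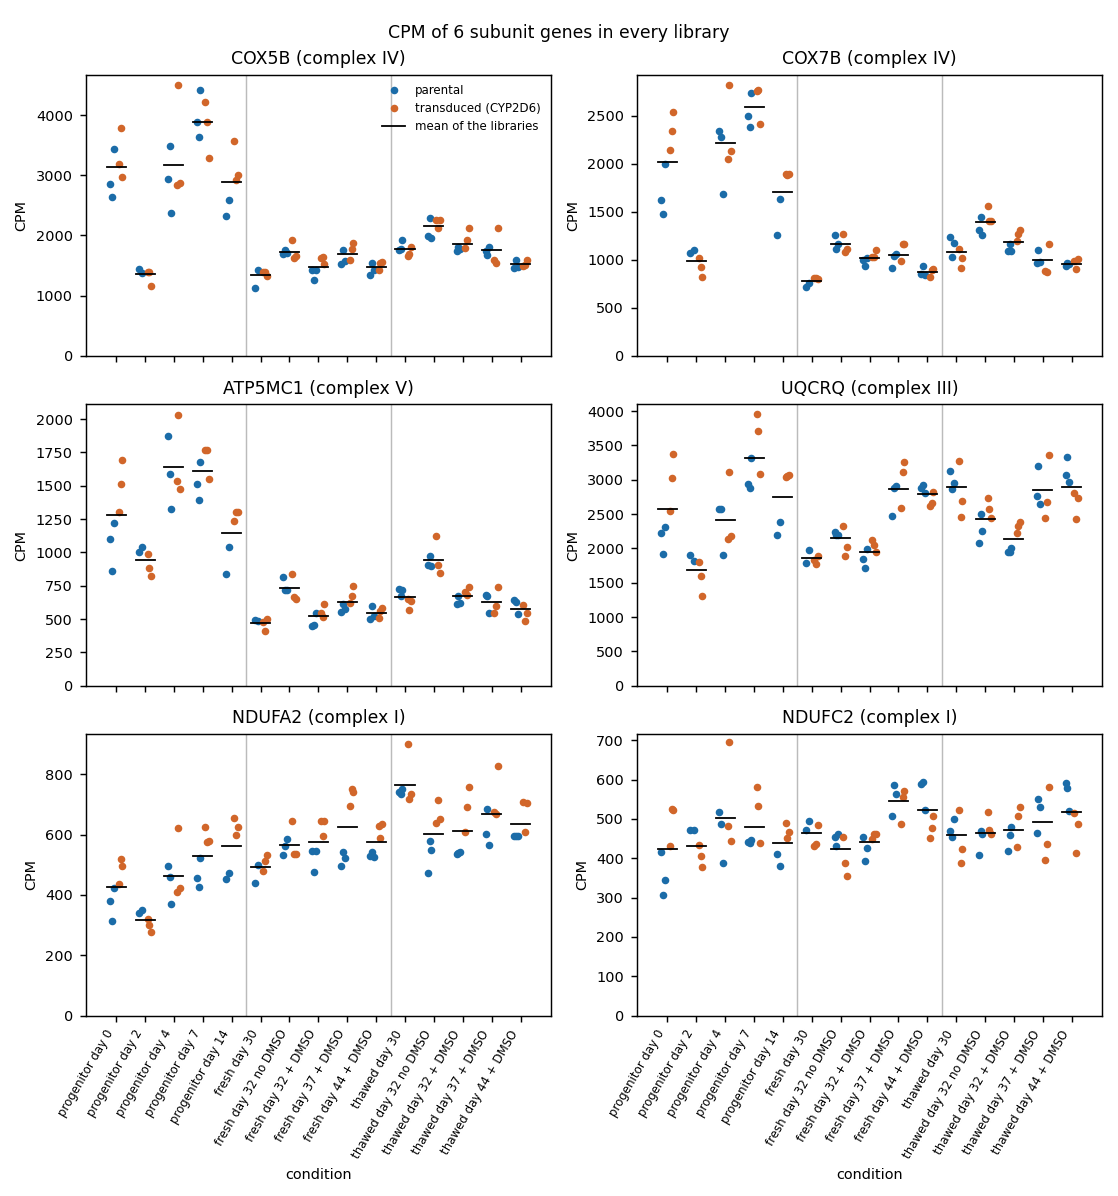
CPM per library of COX5B, COX7B, ATP5MC1, UQCRQ, NDUFA2 and NDUFC2 over the 15 conditions, with 1 point for each library, coloured by genotype, and a line at the mean. COX5B, COX7B and ATP5MC1 dip at progenitor day 2 and fresh day 30, UQCRQ reads at least 2435 CPM at day 44, NDUFA2 is highest in thawed cells of day 30, and NDUFC2 stays between 306 and 696 CPM.

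Differences of the members between genotypes were small. In progenitors, averaged over the 5 days, 6 members were higher in transduced than in parental cells and none was lower, against 1.26% of all genes that were higher and 0.311% that were lower. The median was 0.13 over the members and 0.00 over all genes, and 76 of 80 member differences were positive. The 436 other genes with transcripts of up to 1000 nt had a median of 0.12, against 0.11 in short and 0.14 in longer members. The part of transcript length was not tested. The 6 were NDUFA2 (0.22 ± 0.06, adjusted p = 0.0193), SDHD (0.34 ± 0.09, adjusted p = 0.0227), NDUFB9 (0.20), COX6C (0.21), ATP5F1C, the gamma subunit of ATP synthase (0.23), and UQCRQ (0.19, adjusted p = 0.0383). In every member the genotypes overlapped, as they did in nearly all genes. Of the 12532 genes tested, 1 had every transduced library above every parental one and 0 had the reverse. In a fit of the progenitor libraries alone no member was called, nor without replicate a or without replicate b of the groups, and over all 11 alternative fits the adjusted p of NDUFA2 ran from 0.00901 to 0.381. The gap was uneven over the days, with a member median of 0.33 at day 0, −0.23 at day 2 and 0.35 at day 14.

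In fresh cells 3 members were higher in transduced cells and none lower (1.88% and 1.9% of all genes), NDUFA2 (0.22 ± 0.05, adjusted p = 0.00542), UQCRH (0.24 ± 0.05, adjusted p = 0.000854) and ATP5MD (0.18, adjusted p = 0.0323). In thawed cells 2 were higher (1.1%), NDUFA2 (0.23 ± 0.05, adjusted p = 0.00266) and UQCRH (0.18 ± 0.05, adjusted p = 0.0286), and 1 was lower (1.55%), SDHA, the flavoprotein subunit of complex II (−0.31 ± 0.07, adjusted p = 0.00185). The call of SDHA was lost without replicate a (adjusted p = 0.0932) and without replicate b (adjusted p = 0.114). The calls of ATP5MD in fresh and of UQCRH in thawed cells were lost in 7 of 12 alternative fits each, DESeq2 among them (adjusted p 0.0017 to 0.261 and 0.00727 to 0.484). NDUFA2 was the member called in progenitors, fresh and thawed cells alike, which share no libraries. All 3 of these calls were lost without replicate a of the groups (adjusted p = 0.187 in progenitors, 0.337 in fresh and 0.165 in thawed cells), the fresh one also without the 4 libraries that stood apart (0.0730) and the thawed one without replicate c (0.142). Its means in fresh cells of day 37 were 520 ± 22.9 CPM (SD, n = 3) in parental and 729 ± 30.8 (SD, n = 3) in transduced cells, and in thawed cells of day 30 they were 743 ± 7.19 and 785 ± 101 (SD, n = 3 each). SDHA in thawed cells of day 30 was at 95.1 ± 12.4 CPM in parental and 65.7 ± 6.42 in transduced cells (SD, n = 3 each), and at day 32 with DMSO at 81.6 ± 3.66 and 76.1 ± 1.63. The medians over members were 0.02 in fresh and −0.01 in thawed cells.

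Over the 30 groups the members moved largely together. The Pearson r between 2 members, over their log2 group means, had a median of 0.831 in 3160 pairs, with a range from −0.453 to 0.986. All 80 share the libraries and the scaling, and this is a description. UQCRB (0.985), ATP5PO, the oligomycin-sensitivity protein of ATP synthase (0.982), ATP5PD (0.981) and COX6C (0.979) followed the mean of the other members most closely. NDUFV3 (−0.136), NDUFA2 (−0.114) and NDUFC2 (0.082), all accessory subunits of complex I, did not follow it, and UQCRQ (0.520) and NDUFS1 (0.581) did so loosely. The mean of all members spanned 1.10 log2 units, from CYP2D6 cells at fresh day 30 up to CYP2D6 progenitors at day 7.

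The SD of the log2 group means was smallest in NDUFC2 (0.155), SDHC (0.195) and NDUFAB1, the mitochondrial acyl carrier protein (0.196), and largest in ATP5MC1 (0.579), UQCRC2 (0.516) and COX7B (0.516). As ratios between the highest and the lowest condition mean, NDUFC2 spanned 1.29-fold, from 424 to 545 CPM, and ATP5MC1 3.46-fold, from 474 to 1638 CPM. Highest at a condition other than progenitor days 4 and 7, and named after their values were seen, were NDUFC2, NDUFV2 and NDUFV3 (fresh day 37), ATP5F1D (progenitor day 0), SDHD (progenitor day 14) and NDUFA2 (thawed day 30). Among non-members, the genes whose log2 group means were most like the member mean over the 30 groups were UQCRBP1 (r = 0.980), a pseudogene that can share reads with UQCRB, then MRPS36 (0.971), PDHA1 (0.961), SERF2 (0.959) and MDH1 (0.957).

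The 3 genes for the c subunit encode the same mature protein behind different import sequences, and they differed in how far they moved. From day 0 to day 2 ATP5MC1 fell by 0.40 ± 0.09 on the log2 scale (adjusted p = 0.000303) and ATP5MC3 by 0.58 ± 0.08 (adjusted p = 4.31e-09), while ATP5MC2 was at −0.10 ± 0.09 (adjusted p = 0.483). ATP5MC2 read 566, 892 and 1083 CPM at day 0, and 907, 865, 821, 690 and 701 at day 2. From progenitor day 14 to fresh day 30 all 3 fell, by −1.20 ± 0.10 in ATP5MC1, −0.94 ± 0.09 in ATP5MC3 and −0.68 ± 0.10 in ATP5MC2. With DMSO at day 32 ATP5MC1 alone passed the test, and the changes of ATP5MC2 (−0.11 in fresh, −0.18 in thawed cells) and ATP5MC3 (−0.19 and −0.17) did not. The differences between these genes were not tested.

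Tissue variants of the subunits had few counts, apart from COX6A2. NDUFA4L2 had 120 counts in 38 of 87 libraries, COX6B2 54 counts in 39, COX4I2 3 counts in all and COX7A1 none. COX6A2, known as the heart and muscle form, had 2778 counts with at least 1 in each of the 87 libraries, between 0.710 and 47.3 CPM. It fell from day 0 to day 2 (−2.09 ± 0.28, adjusted p = 8.31e-10), rose from day 4 to day 7 (1.53 ± 0.23, adjusted p = 7.76e-08) and rose from day 32 to day 44 in fresh (1.86 ± 0.25, adjusted p = 1.89e-09) and thawed cells (1.36 ± 0.23, adjusted p = 1.11e-06). Muscle markers summed to 0 to 19.1 CPM over all libraries, and their part was not tested. COX7A2L, which helps to join complexes III and IV, fell from progenitor day 14 to fresh day 30 (−0.91, adjusted p = 2.7e-09) and rose to day 32 (0.43, adjusted p = 0.00501). CYCS, cytochrome c itself, was at −0.03 from day 0 to day 2 (adjusted p = 0.851), then rose from day 2 to day 4 (0.67, adjusted p = 1.9e-08) and fell to fresh day 30 (−0.97, adjusted p = 9.69e-14).

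Other mitochondrial genes were counted in the same comparisons. From day 0 to day 2, 7 of 18 tricarboxylic acid cycle genes, 12 of 24 further electron carriers and transporters and 10 of 15 fatty acid oxidation genes fell, 0, 2 and 1 rose, and the lists had medians of −0.33, −0.32 and −0.66. Mitochondrial ribosomal protein genes went the other way on balance, with 18 of 78 higher, 9 lower and a median of 0.11, and cytosolic ribosomal protein genes likewise, with 31 of 81 higher and 1 lower (0.15). From day 2 to day 4, 13 tricarboxylic acid cycle genes, 11 electron carriers and 9 fatty acid oxidation genes rose and none fell. Of all genes 9.01% rose and 6.26% fell in that step. SLC25A4, an ADP/ATP carrier, changed by −1.40 ± 0.13 from day 0 to day 2 and by 1.44 ± 0.13 from day 2 to day 4. Factors that assemble the complexes were mixed at day 2, with 6 of 53 higher and 13 lower, beside 13.8% and 16.6% of all genes.

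At fresh day 30, against progenitor day 14, called genes of 6 lists lay almost all on the lower side: 52 of 78 mitochondrial ribosomal protein genes (median −0.49), 76 of 81 cytosolic ones (−0.54), 11 of 18 tricarboxylic acid cycle genes (−0.53), 13 of 24 electron carriers (−0.57), 22 of 53 assembly factors (−0.30) and 11 of 24 import genes (−0.39), with 1 assembly factor and 2 import genes higher. Of the 15 fatty acid oxidation genes 5 fell and 1 rose there, with a median of −0.10. The ADP/ATP carriers SLC25A5 (−1.37 ± 0.11) and SLC25A6 (−1.22 ± 0.10) had the smallest p among the electron carriers and transporters. From fresh day 30 to day 32, 34 of 78 mitochondrial ribosomal protein genes and 5 of 18 tricarboxylic acid cycle genes rose and none fell, while of the 15 fatty acid oxidation genes none rose and 3 fell. In thawed against fresh cells at day 30, 46 mitochondrial ribosomal protein genes and 4 tricarboxylic acid cycle genes were higher and none lower, with 3 fatty acid oxidation genes higher and 1 lower. The median of the members was −0.76 at fresh day 30 and that of all genes 0.02, beside the list medians above. Of all genes tested, 11.9% fell and 10.7% rose at fresh day 30, and 9.53% rose and 7.81% fell from there to day 32. In thawed against fresh cells at day 30, 9.54% of all genes were higher and 6.02% lower.

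Among 17 known regulators of mitochondrial genes, 3 fell and 3 rose from day 0 to day 2, while 16.6% of all genes fell and 13.8% rose. PPARGC1A, a coactivator that drives mitochondrial gene expression, read 22.3, 40.7 and 51.7 CPM at day 0, and its day 2 libraries lay between 4.76 and 11.2 CPM (−2.14 ± 0.25, adjusted p = 2.98e-12), with no overlap. It rose again by day 4, to 18.3, 36.2 and 61.6 CPM (2.08 ± 0.25, adjusted p = 1.93e-11). ESRRA, the oestrogen-related receptor alpha, which PPARGC1A activates, fell by 0.92 ± 0.15 on the log2 scale at day 2 (adjusted p = 2.37e-07) and rose by 0.97 ± 0.15 to day 4 (adjusted p = 1.34e-07). At fresh day 30 ESRRA fell again (−0.96 ± 0.16, adjusted p = 7.85e-07), and it rose to day 32 (0.73 ± 0.16, adjusted p = 0.000155), while PPARGC1A did not pass at either step (−0.59, adjusted p = 0.0545, and −0.60, adjusted p = 0.0659). TFAM, which packages mitochondrial DNA and helps to start its transcription, moved the opposite way to the members, up at day 2 (0.68 ± 0.17, adjusted p = 0.000696) and down at day 4 (−0.53 ± 0.17, adjusted p = 0.0158). NRF1 and GABPA, whose motifs were counted above, stood at no more than 9.0 CPM in any library. The part of these regulators in the members' changes was not tested.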

How the data were processed

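Deposited for the 90 libraries were raw counts by gene symbol, unscaled, per the file headers. Libraries were made from 10 ng of total RNA by template switching, PCR and tagmentation, per the labels' protocols. BWA 0.7.4.4 and the builds hg38 and mm10 are named, with no roles, per the submitters' processing notes. Counting rule, strand and use of molecular identifiers are not given in the sources used here, so genes that overlap or have near-identical copies are uncertain.

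From the counts, edgeR 4.0.16 in R 4.3.3 was fitted with 1 mean for each of 30 groups to the 87 libraries with at least 0.25 times the median total. TMM factors, filterByExpr and a robust quasi-likelihood fit were used (57 residual degrees of freedom, common dispersion 0.0430). Contrasts averaged both genotypes with equal weight, and calls were made at an adjusted p under 0.05 (Benjamini-Hochberg, 12532 genes). CPM, log2 and fold values were computed here with the TMM factors, and the SE is the log2 fold change over the square root of F. The script was tested on simulated data, with changes added at day 2 to genes drawn at random from those tested. Changes of 0.5 and of 1 on the log2 scale were each given to 100 genes. Of those that passed the filter in the simulated data, the script called 16.7% at 0.5 and 43.2% at 1. There were 4 calls among unchanged genes. A gene that was not called may therefore still differ. These shares are for genes drawn from all those tested, and none was computed for the members alone.

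The members, gene lists and comparisons were chosen with earlier results of these data known. Named genes were a fixed panel by role, up to 4 called members with the smallest p per direction and comparison, the member with the largest change in each complex, the most and least variable members, and up to 2 called genes per other list, and some of these are not reported here. Alternatives were RLE scaling, no filter, a minimum mean count of 10, a block for the replicate letter, fits without replicate a, b or c, all 90 libraries, the compared libraries alone, the component score as a covariate, DESeq2 1.42.0, and a fit without replicate a of parental day 14 progenitors. Fits without replicate a of parental fresh cells at day 30, and without 4 libraries that stood apart in the members' share of counts, were added after seeing the data.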

Additional observations from a re-analysis of the deposited data

Results flagged for a closer look

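The change from day 30 to day 32 without DMSO differed between thawed and fresh cells in 2 members by the test of the difference itself (edgeR quasi-likelihood). In NDUFA2 the thawed effect was lower than the fresh effect by a log2 difference of −0.57 (adjusted p = 0.00324), and in UQCRQ by −0.46 (adjusted p = 0.022). Both fell in thawed cells, and neither passed the test in fresh cells. Without replicate a of every group neither passed, nor without the 4 libraries named next, and over 13 alternative fits the adjusted p ran from 0.000198 to 0.53 for NDUFA2 and from 0.000573 to 0.625 for UQCRQ. In the share of counts taken by the members, 1 library stood apart from the rest of its condition in 4 of 15 conditions checked, by the gap to its neighbour over the range (Dixon's criterion, which chance meets in about 5% of groups). Parental replicate a of fresh day 30 was at 3.92%, below the 4.24% to 4.32% of the other 4 libraries. Transduced replicate a was at 5.48% at fresh day 32 without DMSO (others 4.91% to 5.12%) and at 5.33% at thawed day 30 (others 4.83% to 5.01%). Transduced replicate c of thawed day 37 was at 5.52% (others 4.62% to 4.89%). In the summed CPM after scaling, none of the 15 conditions had such a library.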

How the results depend on the processing

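Counts are of the 80 members called. RLE scaling, a mean count of at least 10 and the replicate block kept each of the 19 counts within 1.5 times. With the replicate block, 76 members were called at fresh day 30 against progenitor day 14, 14 with DMSO in thawed cells and 15 at thawed day 44. The pairing check over all groups gave a median correlation of −0.00438 for the same letter and −0.000455 for other letters. Within single comparisons the median for a letter ran from −0.131 (a, thawed day 44 against day 32) to 0.195 (a, DMSO in thawed cells). Each of these 2 rests on 4 pairs, too few to decide on pairing there. With all 90 libraries the counts were 9 at day 7 against day 4, 2 and 4 for DMSO in fresh and thawed cells, 11 at thawed day 32, 6 at thawed day 44, 2 and 1 for genotype in progenitors and fresh cells, and 1 for the difference of the day 32 effect. In fits of the compared libraries alone they were 12 at day 7, 0 at day 14 against day 0, 10 and 36 for DMSO in fresh and thawed cells, 17 at fresh day 44, 0, 6 and 5 for genotype in progenitors, fresh and thawed cells, and 19 for the difference of the day 32 effect. That difference gave 10 with DESeq2, 14 with the component score, 8 without a filter and 1 without parental fresh day 30 replicate a. Leaving out the 4 libraries that stood apart gave 21 at fresh day 32, 2 for DMSO in fresh cells, 1 for genotype in fresh cells, 3 in thawed cells with the balance of directions turned (1 higher, 2 lower), and 0 for the difference of the day 32 effect. With the component score DMSO gave 2 in fresh and 7 in thawed cells. Day 14 against day 0 gave 4 without a filter and 4 without parental progenitor day 14 replicate a. The cause was not tested.

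Leaving out replicate a, b or c gave 51 to 58 called at day 2 against day 0, 59 to 76 at day 4 against day 2, 8 to 26 at day 7, 18 to 40 at day 14 against day 7, 1 to 6 at day 14 against day 0, 65 to 75 at fresh day 30, 9 to 47 at fresh day 32 and 26 to 61 for thawed against fresh day 30. The ranges were 0 to 4 and 1 to 15 for DMSO in fresh and thawed cells, 6 to 8 and 5 to 9 at day 44, 11 to 18 at thawed day 32, 0 to 10, 0 to 2 and 0 to 2 for genotype in progenitors, fresh and thawed cells, and 0 to 10 for the difference of the day 32 effect. Without replicate c the balance of directions turned at day 7 against day 4 (11 called), day 14 against day 0 (5) and genotype in thawed cells (1). Of 98 named results none changed sign under any alternative, and 38 lost the call without replicate a, 21 without b, 14 without c and 19 with all 90 libraries. The error differed between genes of the same libraries: at day 2 against day 0 the SE was 0.15 for SDHD, with a median of 96.9 CPM at day 0, and 0.09 for COX5B, with 3083 CPM. SDHD was also spread widely at day 0, and no comparison by library depth was made.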
